A study of Canis lupus familiaris with 15 samples.

Results

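Integrins are paired receptors, each of an alpha and a beta chain, that hold a cell to the matrix around it. Laminins are three-chain proteins of the basement membrane, the thin sheet of matrix on which epithelial and endothelial cells rest. Nidogen, perlecan and agrin tie laminins to the rest of that sheet and to receptors on the cell. Inside the cell, kindlins, talins, parvin, integrin-linked kinase and focal adhesion kinase join integrin tails to actin, and the large cytolinkers plectin and dystonin join adhesions to intermediate filaments and other parts of the cytoskeleton. A tumor cell that leaves a vessel has to pass the vessel's own basement membrane, so these genes are often read in studies of extravasation.

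The genes described here are the integrin alpha and beta chains, the integrin-like ITGBL1, the laminin chains, and 24 further genes for basement membrane linkers, adhesion adaptors, the scaffold protein CASK and adhesion molecules of the immunoglobulin superfamily. They were chosen by symbol, and the symbols cover 61 genes. A total of 39 of the 61 had a row in at least 1 of the 3 deposited tables, which together hold 7698 gene identifiers. The other 22 had a row in none, among them ITGAV, ITGA3, ITGB3, ITGB4, DAG1, TLN1, VCL, NID2, LAMA2 and LAMA5. The tables hold only genes that passed the authors' own test, so a gene without a row may be unchanged, not expressed or not detected, and no level is known for it here.

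RNA was sequenced from 3 libraries in each of 5 groups of canine osteosarcoma cells, 15 libraries in all. D17, HMPOS and POS are canine osteosarcoma cell lines, and HMPOS is a strongly metastasizing derivative of POS. The 3 parental groups (D17, HMPOS and POS) were cultured lines that had not been in a fish. The 2 extravasated groups (D17 and HMPOS) were sub-lines grown out after labelled cells had been put into the bloodstream of zebrafish embryos of the Tg(fli1a:EGFP) strain, had left the vessels as clusters and had been dissected out. The sample titles call these groups extravasation-positive. Extravasated and parental cells therefore also differed in the stay in the embryo, in the bleach and enzyme steps of isolation and in regrowth in culture, and these cannot be told apart from extravasation in this design. There was no extravasated POS group.

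Each table gives 1 FPKM value per group (fragments per kilobase of transcript and per fixed number of mapped fragments). These are the authors' values and pool the libraries of a group, so no spread between libraries, no depth and no error can be given, and no test was made here. The group names end in meta or norm. Norm was read as parental, because POS, which has parental libraries alone, carries it, and meta as extravasated, but neither the labels nor the tables define these names. If they were exchanged, every direction between extravasated and parental cells below would be exchanged too. This doubt is a real one, since the article describes more genes as lower than as higher after extravasation in each line, the reverse of the balance of rows under the reading used here, and the files do not settle which holds. The article also reports extracellular matrix organization as a downregulated pathway in extravasated cells of both lines. Under the reading used here, 80.8% of the listed genes described here were higher in extravasated D17 cells, beside 54.2% of all listed rows. In HMPOS this was 77.8%, beside 67.0% of all rows, and the median log2 ratio of 0.56 was close to the 0.58 of all rows. The article's result is a gene set enrichment, a measure unlike these counts of listed rows, so the directions cannot be set against each other directly. The article's gene set is not the same as the genes described here. The parental HMPOS level is given in both HMPOS tables. Over the 17 genes of this group listed in both, it differed by at most 0.00232 on the log2 scale. The extravasated level differed from the parental level of the other table by at least 0.41. This second difference was bound to be larger, because only genes that passed the authors' test have a row. The comparison does not bear on which name means parental. In bulk RNA, fewer cells that express a gene and less RNA per cell cannot be told apart.

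The listed rows were not balanced around equal levels. The median log2 ratio over all listed rows was 0.39 for extravasated over parental D17, 0.58 for extravasated over parental HMPOS and -0.31 for parental HMPOS over parental POS, and counts relative to these medians are given beside the counts of higher and lower genes. As a check of the label, osteoblast lineage genes were listed at high levels in some groups, with COL1A1 at 397.4 FPKM in the extravasated sub-line, with 224.4 FPKM in parental D17 cells and BGLAP, which encodes osteocalcin, at 46.3 and 27.3 FPKM in extravasated and parental HMPOS cells. Of 6 endothelial markers, only KDR was listed, in the table of HMPOS against POS at 0.146 and 1.73 FPKM, and of 6 leukocyte markers none was listed in any table. Of 5 epithelial markers, CDH1 and EPCAM were listed higher in extravasated D17 cells, at 1.47 against 0.0783 FPKM and 1.72 against 0.431 FPKM. CDH1 was also at 3.04 FPKM in the extravasated sub-line, with 1.49 FPKM in parental HMPOS cells. The part of these markers in the results below was not tested.

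**Figure D1:**
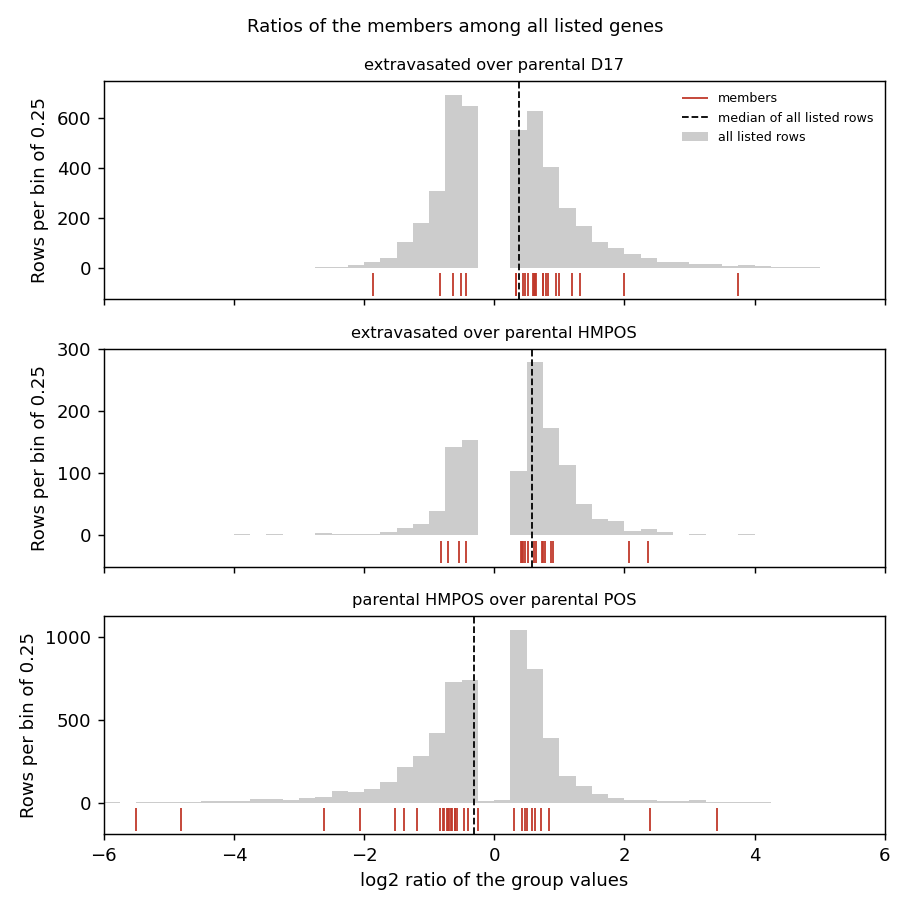
Ratios of the listed genes in the 3 tables. Each panel plots the log2 ratio of the 2 group values on the x axis and the number of listed rows per bin on the y axis (grey bars), with red ticks for the genes described here and a dashed line at the median of all listed rows (0.39, 0.58 and -0.31). Only genes that passed the authors' test are listed, and the rows leave a gap around 0. In all, 1 row of the D17 table and 31 rows of the last table lie outside the axis, and rows with a 0 in either group are not drawn.

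The first comparison asks how adhesion genes differ between extravasated and parental D17 cells. The D17 table held 26 of the 61 genes, with 21 higher and 5 lower after extravasation. That is 80.8% higher, beside 54.2% of all 4412 listed rows, and 19.2% lower, beside 45.8% of all rows. The median log2 ratio was 0.62, and 19 genes lay above and 7 below the median of all listed rows. Above 2-fold, 4 genes were higher (15.4%, beside 18.3% of all rows) and 1 was lower (3.85%, beside 8.50%), so differences of this size were no more common among these genes than among all listed rows.

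Among the integrins, 8 of the 24 chains were listed in D17, 7 higher and 1 lower in extravasated cells, with 6 of the 8 above the median of all rows. ITGA5, the alpha chain of the main fibronectin receptor, was at 24.2 FPKM in the extravasated sub-line, with 10.5 FPKM in parental cells, a 2.30-fold higher level. ITGA10, a collagen-binding alpha chain, was at 8.36 and 3.35 FPKM, 2.50-fold higher. These were the only integrins past 2-fold in this table.

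The other collagen-binding chains listed in D17 were also higher. ITGA2 was at 2.40 FPKM in the extravasated sub-line, with 1.23 FPKM in parental cells, just short of 2-fold at 1.94-fold. ITGA1, whose gene lies next to ITGA2 on chromosome 4, was at 7.58 and 5.56 FPKM. Thus 3 collagen-binding alpha chains were listed and each was higher in extravasated D17 cells, by log2 ratios of 0.45 to 1.32, all above the median of all rows.

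ITGA9, an alpha chain that binds tenascin C and VCAM1, was at 27.0 FPKM in the extravasated sub-line, with 17.7 FPKM in parental D17 cells. ITGB1, the beta chain that most of these alpha chains pair with, had the highest level of all the listed genes described here in D17, at 236.2 and 187.5 FPKM, and one of the smallest ratios, 1.26-fold. Its log2 ratio of 0.33 lay below the table median of 0.39, so relative to that median it was lower. ITGB5, which pairs with the alpha V chain to bind vitronectin, was at 65.4 and 45.5 FPKM. The exception was ITGAE, the alpha chain of a receptor for E-cadherin found mainly on lymphocytes, at 1.63 FPKM in the extravasated sub-line, with 2.91 FPKM in parental cells.

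All 4 laminin chains listed in D17 were higher in extravasated cells, and all 4 were above the median of all rows. LAMA4, an alpha chain typical of vessel walls and muscle, was at 0.818 FPKM in the extravasated sub-line, with 0.205 FPKM in parental cells, 3.99-fold higher, but stayed below 1 FPKM in both groups. The other 3 chains were at higher levels and nearly the same ratio. LAMB1, a widely used beta chain, was at 100.4 and 66.2 FPKM, 1.52-fold higher. LAMC1, the gamma chain of most laminins, was at 18.7 and 12.0 FPKM, 1.55-fold higher. LAMA3, an alpha chain of epithelial basement membranes, was at 11.0 and 7.17 FPKM, 1.54-fold higher.

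NID1, which encodes nidogen 1 and bridges laminin and type IV collagen, was at 6.99 FPKM in the extravasated sub-line, with 4.54 FPKM in parental D17 cells. AGRN, which encodes the heparan sulfate proteoglycan agrin, was at 6.80 and 5.37 FPKM, and its log2 ratio of 0.34 lay just below the median of all rows. Both were higher in extravasated cells, and by less than 2-fold.

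The adaptors inside the cell were divided. In D17, 7 of 10 focal adhesion genes were listed, 5 higher and 2 lower in extravasated cells, and none passed 2-fold. TLN2, a talin that activates integrins, was at 7.04 and 3.99 FPKM, and ZYX, which encodes the adaptor zyxin, was at 15.8 and 9.12 FPKM. The kindlin genes FERMT1 and FERMT2 were at 8.41 against 5.01 FPKM and 77.7 against 56.2 FPKM, and PARVA, which encodes the actin-binding alpha-parvin, was at 45.9 against 29.8 FPKM. PTK2, which encodes focal adhesion kinase, was at 40.6 FPKM in the extravasated sub-line, with 63.2 FPKM in parental cells. PXN, which encodes the scaffold paxillin, was at 17.2 and 23.3 FPKM. The signalling pair of kinase and scaffold was therefore lower, while the listed talin, kindlin, parvin and zyxin genes were higher.

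PLEC had the lowest ratio of the listed genes in D17. The gene encodes plectin, which links integrins to intermediate filaments, and it was at 16.1 FPKM in the extravasated sub-line, with 58.5 FPKM in parental cells, 3.63-fold lower. PLEC and PTK2 both lie on chromosome 13, PTK2 from 35303498 to 35541294 and PLEC from 37442694 to 37502589 in the coordinates of the files (CanFam3.1 in the submitters' processing notes). Of all 74 listed rows on that chromosome, 44 (59.5%) were lower in extravasated D17 cells, beside 45.8% of the whole table. Between the pair, 7 other rows were listed, 3 lower and 4 higher. The part of the chromosome in these results was not tested.

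Adhesion molecules of the immunoglobulin superfamily were higher in extravasated D17 cells for the 3 of 6 that were listed. VCAM1, a ligand of ITGA4 and ITGA9 on activated endothelium and some tumor cells, had the highest ratio of the genes described here in D17. It was at 1.40 FPKM in the extravasated sub-line, with 0.104 FPKM in parental cells, 13.5-fold higher. NCAM1, the neural cell adhesion molecule, was at 9.31 and 5.56 FPKM. L1CAM was at 0.820 and 0.410 FPKM, below 1 FPKM in both groups and just short of 2-fold. CASK, a membrane-associated scaffold that binds syndecans and neurexins, was lower, at 21.2 FPKM in the extravasated sub-line, with 30.2 FPKM in parental cells.

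**Figure D2:**
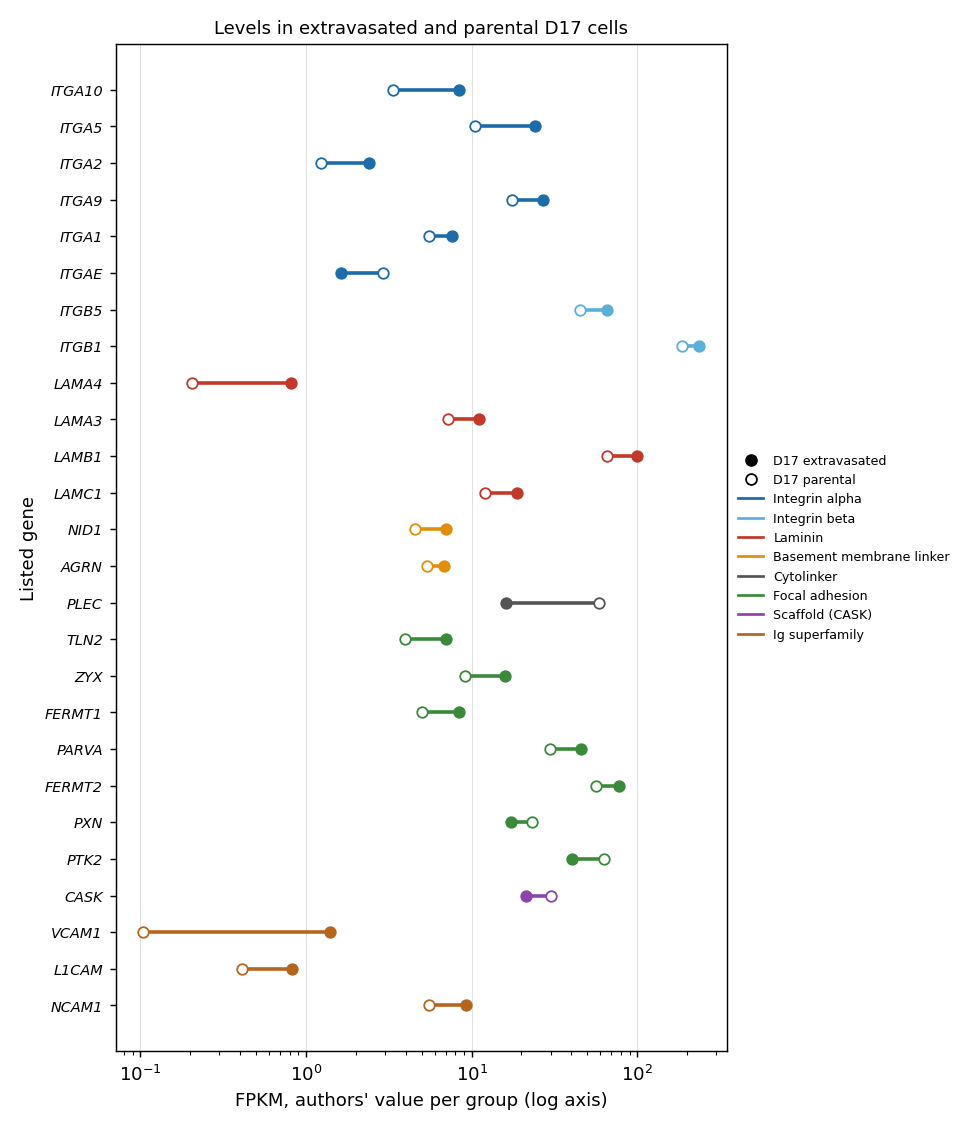
Levels of the 26 listed genes in D17. The x axis is the authors' FPKM value per group on a log axis and the y axis the gene, with filled points for extravasated cells, open points for parental cells and colors for the role of the gene. The widest gaps are those of VCAM1 (1.40 and 0.104 FPKM), LAMA4 (0.818 and 0.205 FPKM) and PLEC (16.1 and 58.5 FPKM), and PLEC, ITGAE, PTK2, PXN and CASK are the 5 genes whose filled point lies to the left.

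The second comparison asks the same of HMPOS. Here 18 of the 61 genes were listed, 14 higher and 4 lower in extravasated cells. That is 77.8% higher, beside 67.0% of all 1189 listed rows, and 22.2% lower, beside 33.0% of all rows. The median log2 ratio of 0.56 was close to the 0.58 of all rows, and 9 genes lay on each side of that value. Above 2-fold, 2 genes were higher (11.1%, beside 20.5% of all rows) and 0 were lower (beside 4.79% of all rows). As a group, these genes were thus not set apart in HMPOS from the other listed rows.

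The 2 genes past 2-fold were laminin chains, and no other laminin was listed in HMPOS. LAMA4 was at 1.12 FPKM in the extravasated sub-line, with 0.219 FPKM in parental cells, 5.14-fold higher. LAMC3, a gamma chain of few tissues, was at 5.59 and 1.33 FPKM, 4.19-fold higher. LAMA4 is listed under ENSCAFG00000004043 on chromosome 12 from 68535958 to 68639178, and LAMC3 under ENSCAFG00000019927 on chromosome 9 from 52970270 to 53028896. Both stayed low in level. On chromosome 12, 16 listed rows were higher in the extravasated HMPOS sub-line and 17 were lower, and on chromosome 9, 66 of 70 (94.3%) were higher. The part of chromosome 9 in the higher level of LAMC3 was not tested.

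Of the 7 integrin chains listed in HMPOS, 6 were higher and 1 lower in extravasated cells, all by less than 2-fold, and 3 were above and 4 below the median of all rows. ITGB5 had the highest level of the genes described here in HMPOS, at 195.5 FPKM in the extravasated sub-line, with 116.6 FPKM in parental cells, 1.68-fold higher. ITGA11, a collagen-binding alpha chain of mesenchymal cells, was at 7.06 and 3.79 FPKM, 1.86-fold higher. ITGB7, a beta chain best known from lymphocytes, was at 3.73 and 2.04 FPKM. These 3 were the integrins above the table median.

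ITGA5 was at 44.2 FPKM in the extravasated sub-line, with 30.8 FPKM in parental HMPOS cells, 1.43-fold higher. ITGA4, which pairs with ITGB1 or ITGB7 and binds VCAM1 and fibronectin, was at 34.8 and 25.0 FPKM. ITGA7, a laminin-binding alpha chain of muscle, was at 22.2 and 16.4 FPKM. These were higher in extravasated cells, but their log2 ratios of 0.44 to 0.52 lay below the median of 0.58.

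ITGA6 was the only integrin that was lower in extravasated HMPOS cells. It encodes a laminin-binding alpha chain that pairs with ITGB1 or, in hemidesmosomes, with ITGB4. The level was 10.3 FPKM in the extravasated sub-line, with 13.9 FPKM in parental cells, 1.36-fold lower. The 2 laminin-binding alpha chains listed in HMPOS thus lay on opposite sides of equal levels, with log2 ratios of -0.44 for ITGA6 and 0.44 for ITGA7. ITGA6 lies on chromosome 36 from 16776968 to 16854629 (ENSCAFG00000013006), where 7 of 13 listed rows were higher in extravasated HMPOS cells. It was not listed in D17.

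Each of the 3 listed basement membrane linkers was higher in extravasated HMPOS cells and above the median of all rows, by less than 2-fold. AGRN was at 25.8 FPKM in the extravasated sub-line, with 15.6 FPKM in parental cells, 1.66-fold higher. HSPG2, which encodes perlecan, was at 23.7 and 15.2 FPKM, 1.57-fold higher. NID1 was at 50.9 and 33.4 FPKM, 1.53-fold higher.

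The genes listed as lower besides ITGA6 were DST, CASK and L1CAM. DST, which encodes the cytolinker dystonin of hemidesmosomes, was at 7.49 FPKM in the extravasated sub-line, with 13.2 FPKM in parental HMPOS cells, 1.76-fold lower. CASK was at 39.0 and 63.5 FPKM, 1.63-fold lower. L1CAM, a neural adhesion molecule also made by invasive tumors, was at 43.5 and 63.3 FPKM, 1.45-fold lower. CASK (X from 35940949 to 36296928) and L1CAM (X from 121708615 to 121722706) share a chromosome, on which 25 of the 41 listed rows were higher.

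Of the remaining genes, NCAM1 was at 4.42 FPKM in the extravasated sub-line, with 2.56 FPKM in parental HMPOS cells. ICAM1, a ligand of leukocyte integrins, was at 39.5 and 29.8 FPKM, and ILK, which encodes integrin-linked kinase, was at 42.4 and 31.6 FPKM. ILK was the only 1 of the 10 focal adhesion genes listed in HMPOS, beside 7 of the 10 in D17, and the table lists fewer rows in all. AGRN and NCAM1 lie on chromosome 5, on which 71 of the 72 listed rows (98.6%) were higher in extravasated HMPOS cells, beside 67.0% of the whole table. In D17 this was 52.4% of 231 rows. Several other chromosomes also had mostly higher rows in extravasated HMPOS cells. These were 44 of 50 rows on chromosome 20 (ICAM1), 20 of 22 on chromosome 33 (ITGB5), 25 of 28 on chromosome 10 (ITGA7), 40 of 48 on chromosome 2 (HSPG2) and 17 of 21 on chromosome 27 (ITGA5 and ITGB7). The opposite held for chromosome 4 (NID1), with 22 of 64 rows higher, and chromosome 30 (ITGA11), with 15 of 36. The part of these chromosomes in the levels of the genes on them was not tested.

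A total of 8 genes were listed for both lines, 30.8% of those listed in D17 and 44.4% of those listed in HMPOS. Among all symbols, the shared ones were 13.9% of the D17 table and 51.6% of the HMPOS table. Both lines were higher in extravasated cells for AGRN, ITGA5, ITGB5, LAMA4, NCAM1 and NID1, and both were lower for CASK. L1CAM was higher in D17 and lower in HMPOS. The direction was thus shared by 7 of the 8 genes (87.5%), beside 535 of all 614 shared symbols (87.1%). The D17 and HMPOS tables were normalized separately, and a level in D17 cannot be set against a level in HMPOS without that limit.

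LAMA4 was the only gene past 2-fold in both lines, with log2 ratios of 2.00 in D17 and 2.36 in HMPOS. NID1 and NCAM1 had nearly equal ratios in both, 0.62 and 0.61 for NID1 and 0.74 and 0.78 for NCAM1. ITGA5 had a log2 ratio of 1.20 in D17 and 0.52 in HMPOS, and AGRN had 0.34 in D17 and 0.73 in HMPOS. Relative to the median of each table, ITGA5 was lower in HMPOS and AGRN was lower in D17. None of these differences between the lines was tested.

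**Figure D3:**
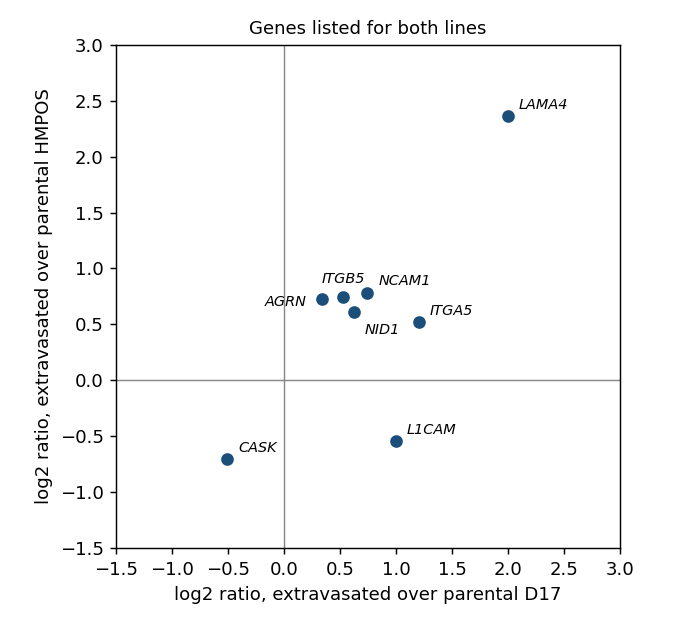
Log2 ratios of extravasated over parental cells for the 8 genes listed in both lines. The x axis is the ratio in D17, the y axis that in HMPOS, each point is 1 gene and grey lines mark equal levels. LAMA4 (2.00 and 2.36) stands at the upper right, CASK (-0.51 and -0.70) at the lower left, and L1CAM (1.00 and -0.54) is the only gene in a quadrant of opposite directions.

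The third comparison sets parental HMPOS against parental POS, the line from which it was derived, with no fish involved. A total of 33 of the 61 genes were listed, 10 higher and 23 lower in HMPOS. That is 30.3% higher, beside 47.7% of all 5746 listed rows, and 69.7% lower, beside 52.3%. The median log2 ratio of HMPOS over POS was -0.61, and 22 of the 33 genes lay below the median of all rows. Above 2-fold, 2 genes were higher (6.06%, beside 8.49% of all rows) and 7 were lower (21.2%, beside 19.1%), shares near those of all rows.

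All 6 laminin chains listed were lower in HMPOS than in POS, and 5 of them lay below the median of all rows. LAMA4 was at 0.219 FPKM in HMPOS, with 9.94 FPKM in POS, 45.4-fold lower. LAMA1, an alpha chain of early embryonic basement membranes, was at 0.0592 and 1.67 FPKM, 28.2-fold lower. The other 4 chains differed far less. LAMC3 was at 1.33 FPKM in HMPOS, with 2.29 FPKM in POS, and LAMB2 was at 23.6 and 40.8 FPKM. LAMA3 was at 6.44 and 8.49 FPKM, and LAMB1, the chain with the highest level, was at 108.1 and 128.0 FPKM. LAMB1 had a log2 ratio of -0.24, above the table median, so relative to that median it was higher.

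The linkers of the basement membrane were lower in HMPOS for each of the 3 listed. AGRN was at 15.6 FPKM in HMPOS, with 44.7 FPKM in POS, 2.87-fold lower. HSPG2 was at 15.1 and 27.0 FPKM, and NID1 was at 33.3 and 52.2 FPKM. All 3 also lay below the median of all rows.

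Integrins were divided, with 4 of the 11 listed chains higher and 7 lower in HMPOS. ITGA11 was at 3.79 FPKM in HMPOS, with 23.3 FPKM in POS, 6.15-fold lower. ITGB5 was at 116.5 and 304.8 FPKM, 2.62-fold lower. ITGA9 was at 14.6 and 33.1 FPKM, 2.27-fold lower. The other lower chains, ITGA1, ITGA4, ITGA6 and ITGA10, differed by less than 2-fold, with ITGA6 at 13.9 and 19.2 FPKM.

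ITGB7 had the highest ratio of the listed integrins, at 2.04 FPKM in HMPOS, with 0.190 FPKM in POS, 10.8-fold higher. ITGA7 was at 16.4 and 9.10 FPKM, 1.80-fold higher, and ITGA5 was at 30.8 and 20.5 FPKM. ITGB1 was at 251.1 and 202.9 FPKM, 1.24-fold higher. The shared beta chain thus differed little in both tables that list it, while single alpha chains differed by up to 6.15-fold. On chromosome 36, where ITGA4 and ITGA6 lie, 41 of 49 listed rows (83.7%) were lower in HMPOS than in POS. Among all rows this share was 52.3%. Other chromosomes were skewed too, with 84.8% of rows lower on chromosome 16 (ZYX) and 77.1% higher on chromosome 8 (FERMT2). Some genes went against their chromosome, as ITGA7 did on chromosome 10 (89% lower) and ITGB5 on chromosome 33 (77.6% higher). The part of the chromosomes in these levels was not tested.

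Among the immunoglobulin family genes, 3 of the 4 listed were higher in HMPOS. MCAM, an adhesion molecule of vessel walls and melanoma, was at 24.3 FPKM in HMPOS, with 4.64 FPKM in POS, 5.23-fold higher. L1CAM was at 63.2 and 38.3 FPKM, and ICAM1 was at 29.8 and 22.2 FPKM. NCAM1 was the exception, at 2.56 and 10.7 FPKM, 4.16-fold lower.

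Focal adhesion genes were lower in HMPOS for 5 of the 6 listed (FERMT1, PARVA, PXN, TLN2 and ZYX), within a narrow range of log2 ratios from -0.71 to -0.58, all below the table median. FERMT2 was higher, at 131.2 FPKM in HMPOS, with 94.8 FPKM in POS. Of the cytolinkers, PLEC was at 42.5 and 67.5 FPKM and DST was at 13.2 and 8.50 FPKM. CASK was at 63.4 FPKM in HMPOS, with 44.9 FPKM in POS.

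**Figure D4:**
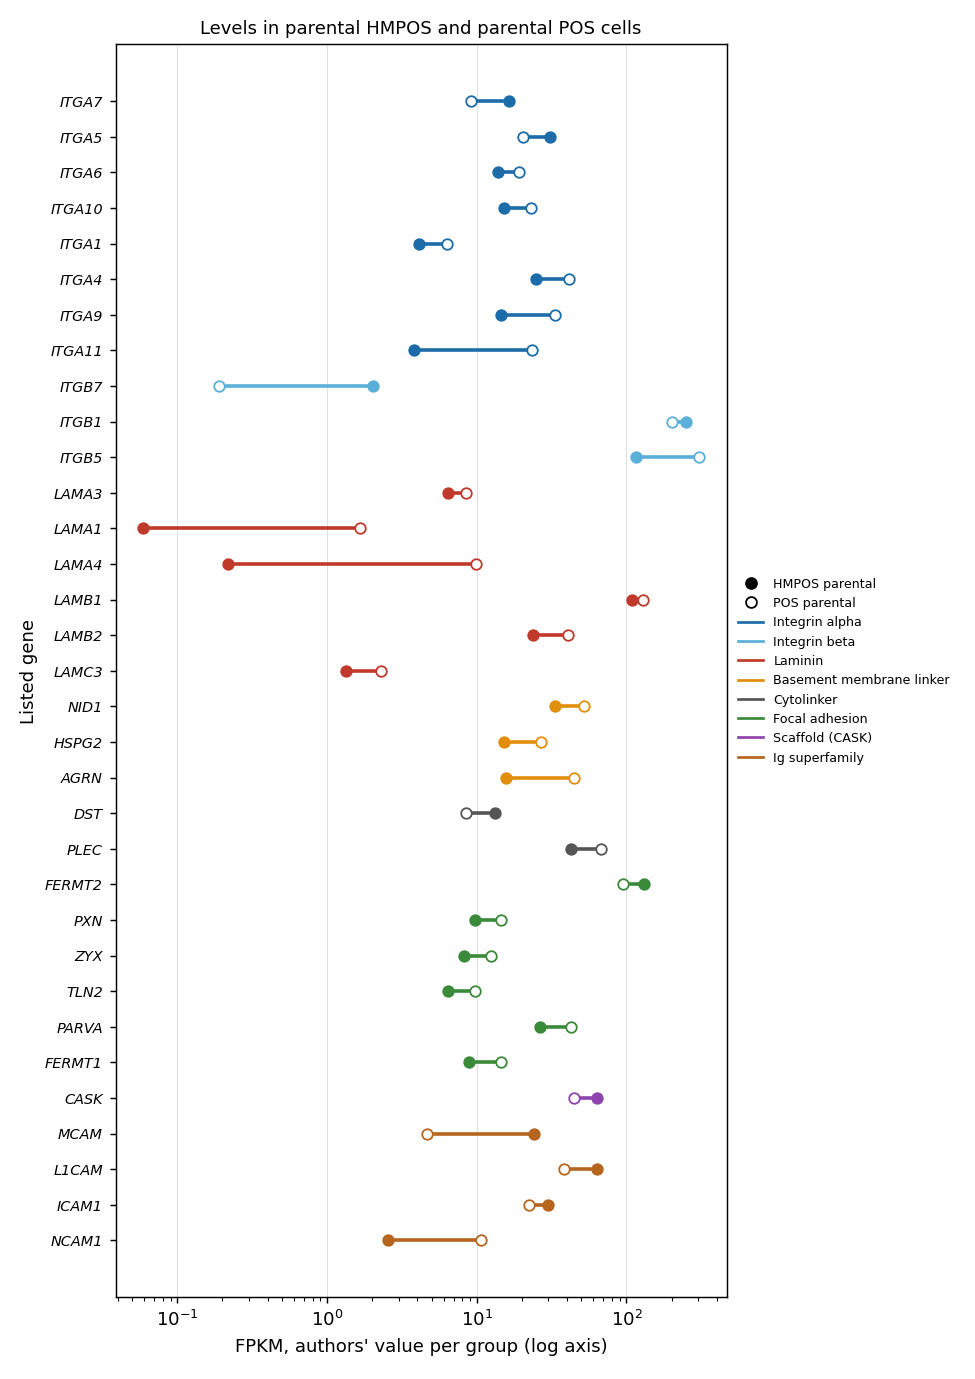
Levels of the 33 listed genes in parental HMPOS (filled points) and parental POS cells (open points). The x axis is the authors' FPKM value per group on a log axis, the y axis the gene, and colors mark the role of the gene. LAMA4 (0.219 and 9.94 FPKM), LAMA1 (0.0592 and 1.67 FPKM) and ITGB7 (2.04 and 0.190 FPKM) have the widest gaps, and ITGB1 and LAMB1 sit at high levels with small gaps.

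A total of 17 genes were listed in both HMPOS tables, so that their levels in POS, parental HMPOS and extravasated HMPOS cells can be set side by side. The POS and extravasated levels come from tables normalized separately, in which the parental HMPOS levels differed by at most 0.00232 on the log2 scale. The comparisons share the parental HMPOS libraries, so a parental value that is off by chance moves both ratios in opposite ways, and no count of shared directions is given. LAMA4 was at 9.94 FPKM in POS, 0.219 FPKM in parental HMPOS and 1.12 FPKM in extravasated HMPOS cells. ITGB5 was at 304.8, 116.6 and 195.5 FPKM in the same order. ITGA11 was at 23.3, 3.79 and 7.06 FPKM. In these genes the parental HMPOS level was the lowest of the 3 and the extravasated level lay between.

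The linkers followed the same order of groups. AGRN was at 44.7, 15.6 and 25.8 FPKM, and HSPG2 was at 27.0, 15.2 and 23.7 FPKM. NID1 was at 52.2, 33.4 and 50.9 FPKM, so that the extravasated level was close to that of POS. NCAM1, at 10.7, 2.56 and 4.42 FPKM, and ITGA4, at 41.5, 25.0 and 34.8 FPKM, had the same order.

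CASK, L1CAM and DST had the highest level in parental HMPOS. CASK was at 44.9 FPKM in POS, 63.5 FPKM in parental and 39.0 FPKM in extravasated HMPOS cells. L1CAM was at 38.3, 63.3 and 43.5 FPKM, and DST was at 8.50, 13.2 and 7.49 FPKM. For CASK and DST the extravasated level was below that of POS.

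For the remaining genes but LAMC3, parental HMPOS lay between the other groups. ITGA6 was lowest in extravasated cells, at 19.2 FPKM in POS, 13.9 FPKM in parental and 10.3 FPKM in extravasated HMPOS cells. ITGB7 was at 0.190, 2.04 and 3.73 FPKM, ITGA5 was at 20.5, 30.8 and 44.2 FPKM, ITGA7 was at 9.10, 16.4 and 22.2 FPKM, and ICAM1 was at 22.2, 29.8 and 39.5 FPKM. LAMC3 was at 2.29, 1.33 and 5.59 FPKM, with its lowest level in parental HMPOS and its highest in extravasated cells.

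**Figure D5:**
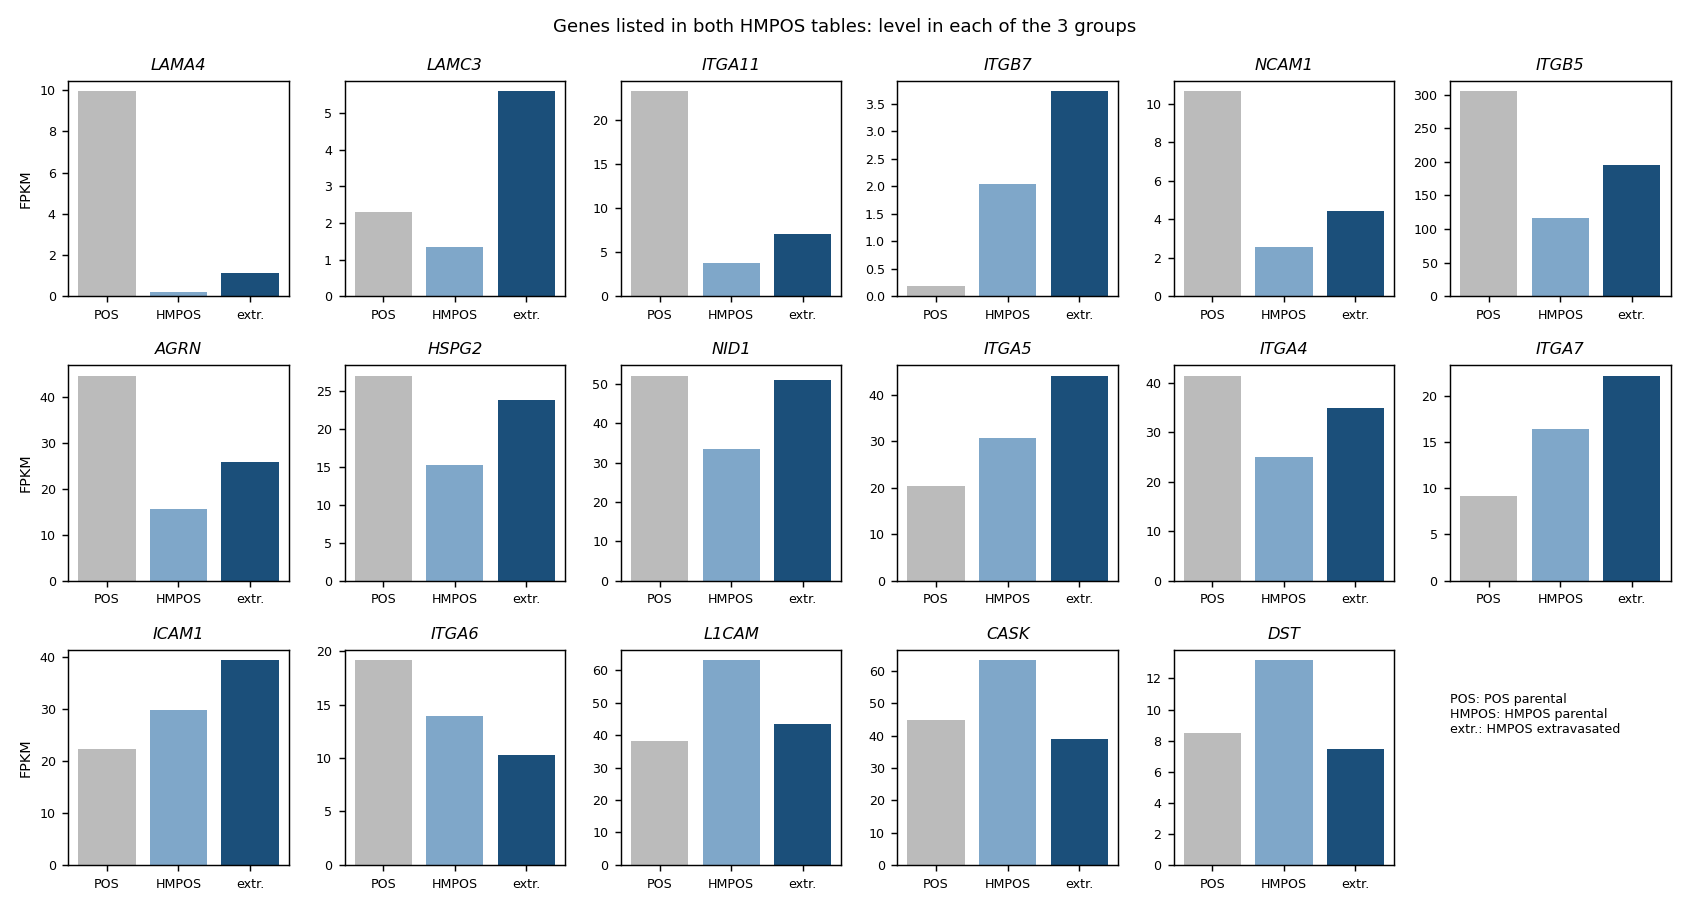
Levels of the 17 genes listed in both HMPOS tables. Each panel is 1 gene, the y axis is the authors' FPKM value from 0, and the bars are POS parental, HMPOS parental and HMPOS extravasated cells, with no error bar because 1 value per group was used. LAMA4, ITGA11, ITGB5, NCAM1, AGRN, HSPG2, NID1, ITGA4 and LAMC3 have the lowest bar in parental HMPOS. CASK, L1CAM and DST have the highest bar there, and the bars of ITGA6 stand at 19.2, 13.9 and 10.3 FPKM.

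Genes that work with these receptors were taken from lists of the pathway. The counts for each list stand beside the shares of all listed rows that were higher. These shares were 54.2% in extravasated D17 cells, 67.0% in extravasated HMPOS cells and 47.7% in HMPOS against POS. Several lists had few listed genes, and no list was tested. Of 16 symbols for matrix ligands of integrins, 7 were listed in D17, all 7 higher in extravasated cells and above the table median. SPP1, which encodes osteopontin, was at 25.2 against 3.71 FPKM, TNC, which encodes tenascin C, at 1.01 against 0.249 FPKM, and NPNT, which encodes nephronectin, at 7.97 against 3.05 FPKM. In HMPOS, 3 of the 4 listed ligands were higher and 1 lower. TNC was at 1.15 and 0.294 FPKM in extravasated and parental HMPOS cells and NPNT at 13.4 and 8.33 FPKM, while IBSP, a sialoprotein of bone, was at 0.427 and 2.05 FPKM. Against POS, 1 of 8 listed ligands was higher in HMPOS and 7 were lower. The higher one was THBS2, which encodes thrombospondin 2, at 76.2 FPKM in HMPOS, with 0.0523 FPKM in POS, and THBS1 was at 5.01 and 53.7 FPKM.

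Of 20 further basement membrane genes, 4 were listed in D17 and 2 in HMPOS, all higher in extravasated cells. SMOC1, a calcium-binding basement membrane protein, was at 7.54 and 2.25 FPKM in extravasated and parental D17 cells and at 9.94 and 6.72 FPKM in HMPOS, where its log2 ratio of 0.56 lay below the table median. Against POS, 2 of 8 were higher and 6 lower in HMPOS. COL4A1, a chain of the collagen network of basement membranes, was at 0.0771 FPKM in HMPOS, with 3.45 FPKM in POS, 44.7-fold lower, and COL18A1 was at 9.85 and 40.0 FPKM. Among the genes of this list that reached 1 FPKM in a group, none listed for either extravasation comparison was a type IV collagen gene. In D17, 1 of the 4 listed genes was below 1 FPKM in both groups and is not named here.

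Of 31 further adhesion adaptors, 9 were higher in extravasated D17 cells and 1 were lower, and all 7 listed were higher in extravasated HMPOS cells, 6 of them above the table median. LIMS2, which encodes the integrin-linked kinase partner PINCH2, was at 1.78 and 0.742 FPKM in D17 and at 2.22 and 0.900 FPKM in HMPOS. KANK1, which binds talin, was at 19.5 and 8.10 FPKM in D17. LPXN, which encodes the paxillin relative leupaxin, was at 1.41 and 0.611 FPKM in HMPOS. Against POS, 4 of the 14 listed adaptors were higher and 10 lower in HMPOS.

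Of 25 genes for integrin signalling and activation, 7 were higher in extravasated D17 cells and 2 were lower. ARHGEF6, an exchange factor for Rac and Cdc42, was at 11.2 and 2.87 FPKM, 3.90-fold higher, and PTK2B, the relative of focal adhesion kinase, was at 4.20 and 1.95 FPKM, while PTK2 itself was lower. SRC was higher in extravasated cells of both lines, at 20.7 against 12.6 FPKM in D17 and 18.9 against 12.8 FPKM in HMPOS, though below the table median in HMPOS. Both listed genes of this list were higher in HMPOS, and against POS 3 were higher and 5 lower.

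Of 12 membrane proteins that associate with integrins, 4 were higher in extravasated D17 cells and 2 were lower and 2 were higher in HMPOS. CD82, a tetraspanin known as a suppressor of metastasis, was at 17.5 and 3.43 FPKM in extravasated and parental D17 cells and at 186.5 and 96.7 FPKM in HMPOS. CD81, another tetraspanin, was at 612.0 and 212.3 FPKM in D17 and at 177.1 and 124.5 FPKM in HMPOS, where its log2 ratio of 0.51 lay below the table median. Against POS, 3 were higher and 4 lower in HMPOS, and CD82 was at 96.6 FPKM in HMPOS, with 8.85 FPKM in POS.

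DAG1, which encodes dystroglycan, a laminin receptor outside the integrin family, was listed in no table. Of 29 symbols for its partners and the enzymes that add its sugars, 8 were higher in extravasated D17 cells and 3 were lower, 2 were higher in HMPOS, and against POS 6 were higher and 6 lower. DMD, which encodes dystrophin, was at 6.79 and 2.51 FPKM in extravasated and parental D17 cells, and SGCD, a sarcoglycan, at 2.04 and 0.734 FPKM. SSPN, which encodes sarcospan, was at 31.8 and 20.4 FPKM in HMPOS.

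CASK was lower in extravasated cells of both lines, and the few partners listed were higher. Of 21 symbols, 3 were listed in D17 (EPB41L3, SDC3 and SDC4) and 1 in HMPOS (SDC3). All were higher in extravasated cells, although SDC3 lay below the table median in HMPOS. Of all rows, 54.2% were higher in D17 and 67.0% in HMPOS, so counts this small say nothing about CASK partners as a group. The syndecan gene SDC4 was at 43.2 and 26.7 FPKM in extravasated and parental D17 cells. SDC3 was at 7.75 and 5.06 FPKM in D17 and at 3.27 and 2.22 FPKM in HMPOS. Against POS, 4 partners were higher and 8 lower in HMPOS, while CASK was higher.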

How the data were processed

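Libraries were 3 per group, with replicates numbered in the sample records. Per the labels, reads were processed with Trimmomatic 0.38, TopHat2, Cufflinks and Cuffdiff on CanFam3.1, whereas the article's methods name STAR, voom and limma, and the columns of the tables are those of Cuffdiff. The deposited values used here are 1 FPKM per group, which the authors made by pooling the libraries of the group. The authors' log2 fold changes, test statistics, p-values and q-values, also in the tables, were not used. Every row carries the authors' mark of significance.

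Genes were matched by symbol, so ITGA2B and integrin-binding proteins were left out. The members and lists were chosen with earlier results of these data known. Log2 ratios were computed from the group values with no pseudocount and with a threshold of 2-fold. Rows with 0 in either group (8, 3 and 28 in the order of the comparisons) counted toward directions but not medians. Named were members past 2-fold or listed in both lines, ITGA6, CASK and others by role, and at most 3 genes per list at 1 FPKM or more, ranked by absolute ratio. The markers were listed in full. No test was made, and depth is unknown. The 0 columns of single samples left unused mean that no value per library was used. The log2 ratio, the 2-fold count and the median were checked on simulated levels without noise, which covers that arithmetic alone. Python 3.11.15, numpy 2.4.6, pandas 2.3.3 and matplotlib 3.10.9 were used. Alternatives were another threshold, a filter on low levels, pseudocounts, centring and 1 row per symbol.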

Additional observations from a re-analysis of the deposited data

Results flagged for a closer look

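L1CAM was the only gene of those listed in both lines whose pooled levels lay in opposite directions, with a log2 ratio of extravasated over parental cells of 1.00 in D17 and -0.54 in HMPOS. The level was 0.820 against 0.410 FPKM in D17 and 43.5 against 63.3 FPKM in HMPOS, so the D17 ratio rests on levels below 1 FPKM. The difference between the lines was not tested, and no value per library was used.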

How the results depend on the processing

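Counted at any fold change, the higher and lower members were 21 and 5 in D17, 14 and 4 in HMPOS, and 10 higher and 23 lower in HMPOS against POS. Above 1.5-fold these were 16 and 3 in D17 (beside 36.9% and 24.9% of all rows), 9 and 2 in HMPOS (49.9% and 14.6%), and 6 and 19 against POS (23.6% and 34.4%). After centring on the median of all listed rows, 2 genes were higher and 3 lower above 2-fold in D17 (10.8% and 23.0% of all rows), 4 were lower in HMPOS (30.4%), and 4 were higher in HMPOS against POS (17.5%). The median log2 ratio of the members then became 0.24 in D17, -0.02 in HMPOS, where it changed sign, and -0.30 against POS. This follows from the centring itself, and the median of rows that passed a test is not a neutral reference.

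A pseudocount of 1 FPKM left 1 gene higher above 2-fold in HMPOS, with medians of 0.57, 0.55 and -0.54. With 0.1 FPKM the medians in D17 and against POS were 0.61 and -0.60, and with a higher level of at least 1 FPKM the D17 median was 0.61. Of the values under alternatives, 31 stayed within 1.5 times of the count or at the same median, 25 moved and 1 reversed. No paired analysis was possible because no library has a value of its own. For the same reason, no fit that leaves out a library was run. The unknown depth limits most the ratios with a level below 1 FPKM in either group. These include LAMA4 and L1CAM in D17, VCAM1 in parental D17, LAMA4 and LAMA1 in parental HMPOS and ITGB7 in POS, and so the highest folds given.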

Other observations

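Some of the genes described lie near each other. ITGA2 and ITGA1 are 25.1 kb apart on chromosome 4, with no other listed gene between them in D17, and both were higher in extravasated D17 cells. ITGA5 and ITGB7 are 1059 kb apart on chromosome 27 and were both higher in extravasated HMPOS cells, where 17 of the 21 listed rows on that chromosome were higher. Both were also higher in parental HMPOS than in POS, with 6 lower and 4 higher rows among the 10 other listed rows between them.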
